A study of Mus musculus with 27 samples.

Results

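A set of 10 Krüppel-like factor genes was followed through the brain, the meninges and the skull of mice whose skull had been exposed to ultraviolet B light: Klf2, Klf3, Klf4, Klf5, Klf6, Klf7, Klf10, Klf11, Klf13 and Klf15. They were taken by symbol from the count table, where they make up 10 of 37095 rows, and all 10 passed the filter on low counts in every tissue. Messenger RNA was sequenced from 27 libraries in 9 groups of 3 libraries. Each tissue was sampled in control mice that received no UVB, and 0.5 h and 24 h after UVB of 311 nm and 2 mW on the interparietal bone, the bone at the back of the skull roof. The labels name mouse as the species and describe the meninges as scraped from the skullcap, which was rinsed of blood. Strain, genotype, age, sex, the length of exposure and the clock time of sampling are not stated in the labels. Nor is it stated whether the libraries of a group came from separate animals. The p-values therefore measure the spread between these libraries, which may be technical in part. A single group of control libraries per tissue served both times. Effects of the light, of handling and of the hour of sampling therefore cannot be told apart.

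Krüppel-like factors are transcription factors with 3 zinc fingers at the carboxyl end of the protein, which bind GC-rich sites and CACCC boxes. The fingers are alike across the family, while the amino-terminal parts differ and recruit activators or repressors. Several members are early-response genes whose transcripts turn over fast. Klf2 and Klf4 are best known in endothelium, where flowing blood raises them through the kinase ERK5 and MEF2 factors. Klf10 and Klf11 are induced by TGF-beta, and Klf15, like the related Klf9, is a target of the glucocorticoid receptor. Klf6 is an early gene of tissue injury, Klf7 is linked to axon growth in neurons, Klf5 drives growth of epithelia, Klf3 represses transcription with the CtBP proteins, and Klf13 was described as an activator of the chemokine gene Ccl5 in T lymphocytes.

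Depth ran from 14.2 M to 27.3 M counts per library. The first brain control was the deepest, at 27.3 M, and the next deepest library held 18.2 M. Brain libraries were rich in neuronal markers, whose 4 genes summed to 4407 to 5484 CPM (counts scaled to library size), against 222 to 381 CPM in the meninges and 6.45 to 14.6 CPM in the skull. Meninges libraries also held osteoblast markers, at 449 to 1034 CPM, and pineal markers, at 678 to 1214 CPM. Choroid plexus markers there varied most, at 9.13 to 5438 CPM in the controls and 32.5 to 11979 CPM at 24 h. At 0.5 h they summed to 2845 to 3976 CPM. The scraped tissue was thus not free of RNA from bone, pineal gland and choroid plexus. The part of choroid plexus in the meninges results was not tested. In bulk tissue, fewer cells of a type and less RNA per cell cannot be told apart.

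The start regions of these genes are GC-rich, and a few are shown here so that the motifs they hold can be read in place. RefSeq start sites on GRCm38.p6 were matched for 8 of the 10 genes, all but Klf5 and Klf10. In the window of 250 bases before the start, the median GC content of the 8 members was 71.8%, against 52.4% over 32851 promoters. Motifs were searched in the same window, on both strands. The GC box, GGGCGG, was found in 8 of 8 members and in 32.7% of all promoters. CACCC, the core of the box that Krüppel-like factors themselves bind, was found in 5 of 8 members and in 52% of all promoters. An E-box of the CACGTG form was found in 4 of 8 members, Klf4, Klf6, Klf11 and Klf15, and in 6.02% of all promoters. TGACG, part of the cyclic AMP response element, was found in Klf2, Klf4, Klf13 and Klf15 and in 17.8% of all promoters, and the whole element TGACGTCA, which contains it, in 0 of 8 members and 1.55% of promoters. The palindromic glucocorticoid response element was found in 0 of 8 members and 0.00913% of promoters, and TATAAA in 0 of 8 and 12.4%. A MEF2 site was found in 1 member, Klf2, and in 0.508% of all promoters. CCAAT was found in 4 of 8 members and in 33.8% of promoters, and a CArG box in 0 of 8 and 1.47%. A match describes these letters only. No match says only that the letters are not in this window.

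The stretch of chr8:72318812-72319032 on the plus strand ends just before Klf2 and is printed with its MEF2 site in capitals. The stretch of chr7:63938916-63939165 on the minus strand precedes Klf13, the member that was lower in the most comparisons, with TGACG in capitals. Both are GRCm38.p6 and read 5′ to 3′.
Klf2: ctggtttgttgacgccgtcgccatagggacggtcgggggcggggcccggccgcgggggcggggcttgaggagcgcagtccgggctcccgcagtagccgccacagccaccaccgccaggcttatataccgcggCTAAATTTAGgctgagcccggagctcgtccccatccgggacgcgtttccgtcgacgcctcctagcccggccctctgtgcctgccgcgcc
Klf13: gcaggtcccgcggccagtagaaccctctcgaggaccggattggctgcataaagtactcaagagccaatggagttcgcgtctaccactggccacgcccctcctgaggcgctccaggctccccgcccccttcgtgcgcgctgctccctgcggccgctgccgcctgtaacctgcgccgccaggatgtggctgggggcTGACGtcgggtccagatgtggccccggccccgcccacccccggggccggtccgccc

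The E-boxes of the 4 members that hold one are printed in capitals with their neighbouring bases, each on the strand of its gene: Klf4 at chr4:55532635-55532674 (minus), Klf6 at chr13:5861429-5861468 (plus), Klf11 at chr12:24651140-24651179 (plus), and Klf15 at chr6:90462331-90462370 and chr6:90462387-90462426 (plus).
Klf4: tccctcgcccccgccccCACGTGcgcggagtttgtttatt
Klf6: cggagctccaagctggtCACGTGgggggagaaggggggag
Klf11: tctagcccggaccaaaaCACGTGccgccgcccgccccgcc
Klf15 first site: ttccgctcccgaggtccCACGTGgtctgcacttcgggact
Klf15 second site: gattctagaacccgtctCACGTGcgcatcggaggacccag

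Untreated tissues differed widely in these genes. To compare genes, CPM was divided by exon length in kilobases (GENCODE M21 on mm10). In the untreated brain Klf13 had the highest level, at 31.99 ± 0.591 CPM per kb (SD, n = 3), followed by Klf6 at 12.8 ± 3.65, Klf7 at 11.5 ± 0.614, Klf2 at 9.60 ± 1.64 and Klf15 at 8.51 ± 0.540. Klf11 at 1.95 ± 0.320, Klf5 at 2.53 ± 0.228 and Klf3 at 2.98 ± 0.170 CPM per kb were the lowest. Klf4 at 5.70 ± 2.56 and Klf10 at 5.49 ± 0.611 lay between. Klf6 and Klf7 were not separated beyond their spread, nor were Klf2 and Klf15, or Klf4 and Klf10. In the untreated meninges Klf2 led at 89.3 ± 3.78 and Klf4 followed at 61.6 ± 3.91 CPM per kb, ahead of Klf6 at 33.7 ± 2.91 and Klf13 at 30.2 ± 1.30. Klf7 at 13.5 ± 0.699, Klf15 at 12.3 ± 1.39, Klf10 at 11.5 ± 2.61, Klf11 at 8.79 ± 2.68 and Klf3 at 8.31 ± 1.02 followed, and Klf5 was the lowest at 3.05 ± 0.285. In the untreated skull Klf4 at 71.0 ± 16.8, Klf6 at 66.3 ± 6.94 and Klf2 at 63.8 ± 4.76 CPM per kb were not separated beyond their spread, and Klf13 followed at 44.3 ± 0.928. Klf10 at 20.01 ± 3.81 and Klf11 at 16.9 ± 2.05 lay within 1 SD of each other, above Klf7 at 11.5 ± 0.525 and Klf3 at 9.33 ± 0.914. The lowest skull levels were those of Klf5, at 2.46 ± 0.405, and Klf15, at 2.83 ± 1.01 CPM per kb, which lay within 1 SD of each other.

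**Figure D1:**
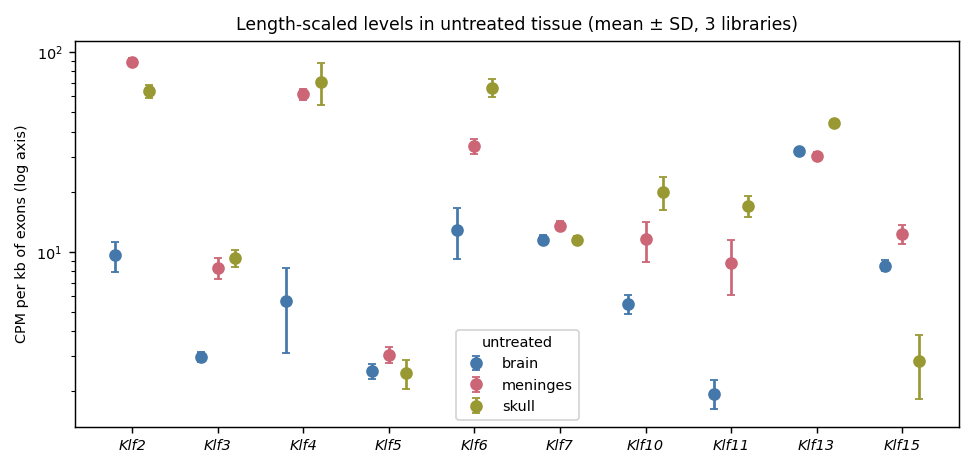
Levels of the 10 genes in untreated tissue as CPM per kb of exons on a log axis, mean ± SD of 3 libraries for brain (blue), meninges (red) and skull (olive). Klf2, Klf4 and Klf11 lie far lower in the brain than in the other tissues, while Klf5 and Klf7 lie close together in all 3.

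Between untreated tissues, 7 of 10 members were called higher in the meninges than in the brain, where 36.8% of 21500 tested genes were called higher. A call is an edgeR quasi-likelihood F test with a Benjamini-Hochberg adjusted p under 0.05 over all tested genes. The log2 differences were 3.42 ± 0.26 (SE) for Klf4, 3.21 ± 0.22 for Klf2, 2.16 ± 0.16 for Klf11, 1.48 ± 0.11 for Klf3, 1.39 ± 0.15 for Klf6, 1.07 ± 0.19 for Klf10 and 0.24 ± 0.10 for Klf7. The call of Klf7 (adjusted p = 0.0391) ended without any 1 of brain control 1, brain control 2, meninges control 1, meninges control 3, brain 24 h 2 or meninges 24 h 1 (adjusted p up to 0.101), and its difference was 0.13 with DESeq2's size factors. Endothelial markers (7 of 7 above 0) were also higher in the meninges, at a summed 882 to 973 CPM against 138 to 155 CPM in the brain. In the untreated skull they summed to 311 to 365 CPM. Mean Klf4 there was 217 CPM against 188 CPM in the meninges, and mean Klf2 was 118 against 165 CPM. The part of endothelial content in the levels of Klf2 and Klf4 was not tested. Against the brain, the untreated skull was higher in 7 members, where 37.3% of genes were called higher, with log2 differences of 3.62 ± 0.26 for Klf4, 3.11 ± 0.17 for Klf11, 2.73 ± 0.22 for Klf2, 2.37 ± 0.16 for Klf6, 1.87 ± 0.19 for Klf10, 1.65 ± 0.11 for Klf3 and 0.47 ± 0.07 for Klf13. Klf15 was lower in the skull than in the brain, with a log2 difference of -1.58 ± 0.27 (38.3% of genes called lower). Skull and meninges differed in 6 members. Klf6 (0.98 ± 0.15), Klf11 (0.95 ± 0.15), Klf10 (0.79 ± 0.18) and Klf13 (0.55 ± 0.07) were higher in the skull, where 21.6% of genes were called higher, while Klf15 (-2.11 ± 0.28) and Klf2 (-0.49 ± 0.20, adjusted p = 0.0496) were lower, as were 26.5% of genes. The Klf2 call ended without 17 of the 27 libraries, that is without any library except brain control 1 and 2, brain 0.5 h 2 and 3, brain 24 h 1 to 3, meninges 24 h 1 and 2 and skull 24 h 2 (adjusted p up to 0.145).

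After UVB the members that passed the test were lower, with a single exception. Over the 6 comparisons of an exposed group with the untreated tissue, which share each tissue's control libraries, Klf13 fell in 5, Klf4 in 4, Klf2, Klf6 and Klf15 in 3 each, Klf7 and Klf11 in 2 each and Klf10 in 1. Klf5 rose in 1 and fell in 0, and Klf3 was called in 0 of the 6. The 3 exposed libraries of Klf13 lay below all 3 controls in 6 of 6 comparisons, and no other member did so. The share of all genes that did so in 6 of 6 was not counted. Over the 10 members, groups that did not overlap and were lower after UVB numbered 3 and 4 in the brain at 0.5 h and 24 h. At the same times they numbered 4 and 7 in the meninges and 7 and 9 in the skull. The shares of all tested genes in the same order were 5.5%, 10.6%, 11%, 14.5%, 13.6% and 18.4%.

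**Figure D2:**
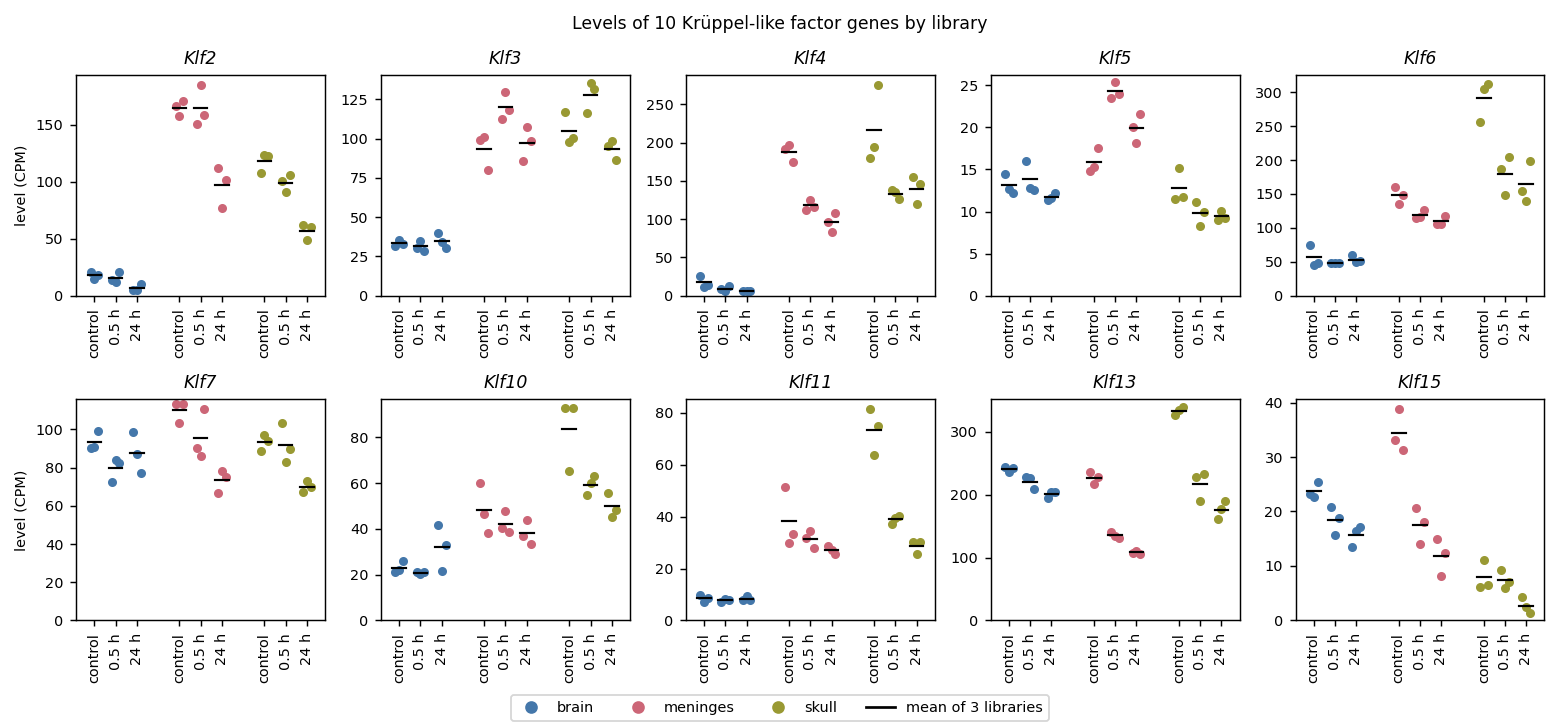
CPM of each gene in every library, by tissue (colour) and time after UVB, with the mean of 3 libraries as a black line and each axis starting at 0. Klf13 falls from 227 to 108 CPM in the meninges and from 334 to 176 CPM in the skull by 24 h, while in the brain its means are 241 CPM in the controls and 202 CPM at 24 h.

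In the brain at 0.5 h, 0 of 10 members passed the test, where 1 of 18172 genes (0.0055%) did. At an unadjusted p under 0.05, 955 genes passed, DESeq2 called 15 genes and limma-voom likewise called 0 members. The smallest p-values belonged to Klf15, with a log2 fold change of -0.36 ± 0.13 (adjusted p = 0.895), Klf7 (-0.23 ± 0.09, adjusted p = 0.904), Klf4 (-0.95 ± 0.35, adjusted p = 0.921) and Klf13 (-0.12 ± 0.06, adjusted p = 0.938). The exposed libraries lay below all controls in 3 members, Klf7, Klf13 and Klf15, against 5.5% of genes. At 24 h in the brain 3 members fell, Klf2, Klf13 and Klf15, where 1.42% of genes were called lower, and 0 rose. The count became 0 without brain control 1, without brain control 3 or without brain 24 h 1. The median log2 fold change of the 10 members was -0.13, against -0.003 over all genes.

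In the meninges at 0.5 h, Klf4 and Klf13 fell, where 0.507% of 18542 genes were called lower, and Klf5 rose, where 0.367% were called higher. The count of 3 dropped to 1 without any 1 of meninges control 1, meninges control 2 or the 3 libraries at 0.5 h. At 24 h in the meninges 6 members fell (Klf2, Klf4, Klf6, Klf7, Klf13 and Klf15), where 4.45% of genes were called lower, and the median of the members was -0.51 against 0.02 over all genes. In the skull at 0.5 h 4 members fell (Klf4, Klf6, Klf11 and Klf13), where 2.94% of 17426 genes were called lower. That count was 2 without skull 0.5 h 1 or without skull 0.5 h 2. At 24 h in the skull 8 members fell, all except Klf3 and Klf5, where 10.4% of genes were called lower. The members' median there was -0.78, against -0.001 over all genes.

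**Figure D3:**
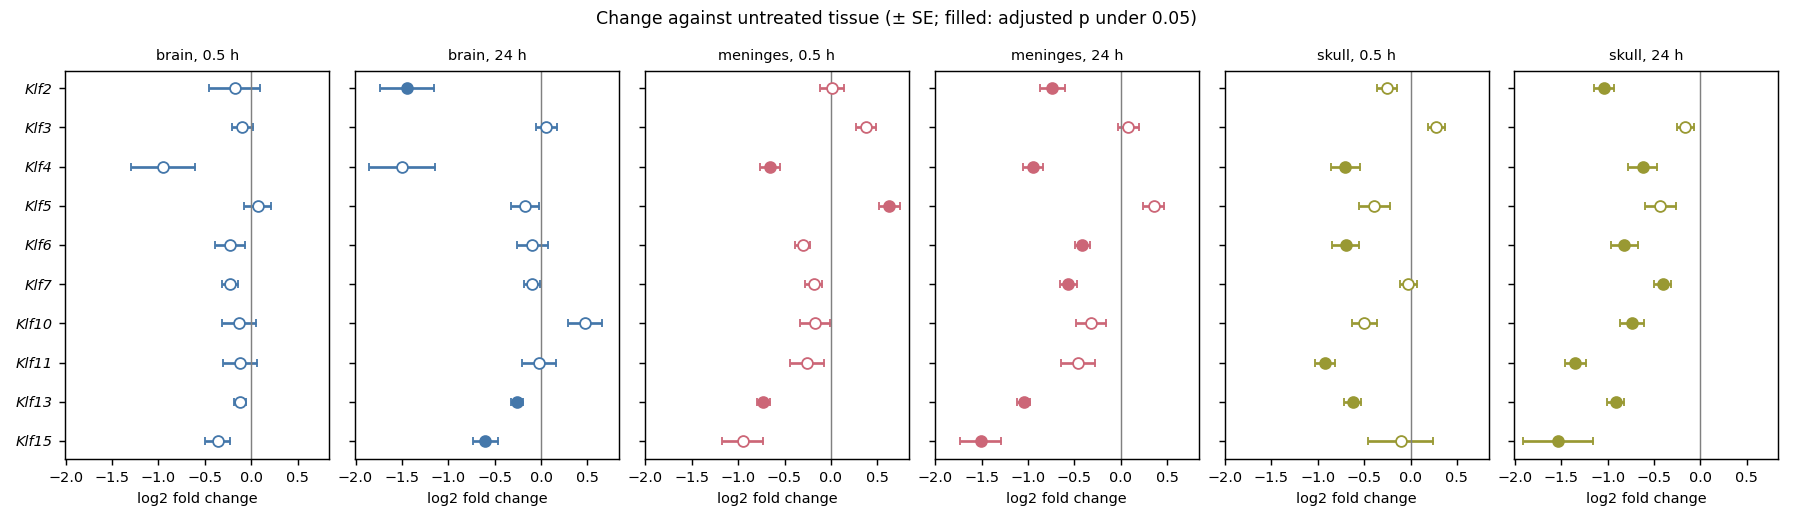
Log2 fold change against untreated tissue for each gene (± SE, from the fit of 9 libraries of a tissue), in brain, meninges and skull at 0.5 h and 24 h. Filled points have an adjusted p under 0.05, and all of them lie left of 0 except Klf5 in the meninges at 0.5 h.

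Klf13 lies on chromosome 7 (mm10, 63886351 to 63938915, minus strand). Its levels in the meninges were 237, 217 and 228 CPM in the controls, 141, 135 and 131 CPM at 0.5 h and 107, 111 and 106 CPM at 24 h. The 3 groups did not overlap and were ordered by time after exposure. Klf13 fell at 0.5 h with a log2 fold change of -0.73 ± 0.07 (adjusted p = 0.00178) and at 24 h with -1.05 ± 0.07 (adjusted p = 6.18e-05), which is the smallest adjusted p of any member in the meninges. In the skull the controls held 326, 334 and 340.3 CPM, the 0.5 h libraries 229, 190 (skull 0.5 h 2) and 233 CPM, and the 24 h libraries 162, 177 and 190.1 CPM. All exposed libraries lay below the controls, and the log2 fold changes were -0.62 ± 0.09 at 0.5 h (adjusted p = 0.00515) and -0.91 ± 0.09 at 24 h (adjusted p = 6.98e-05). These 4 calls of Klf13 held whichever library was left out. Brain controls held 244, 236 and 243 CPM, the 0.5 h libraries 228, 227 and 209 CPM, and the 24 h libraries 196, 205 and 204 CPM. The brain groups did not overlap, but the change was small: at 24 h the log2 fold change was -0.26 ± 0.06 (adjusted p = 0.0375). That brain call ended without any 1 library except brain 0.5 h 3 (adjusted p up to 0.145), and with a correction for GC content and for length of transcripts the log2 fold change was -0.12 (adjusted p = 0.415).

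Klf15, on chromosome 6 (90462576 to 90475238, plus strand), had its lowest mean level at 24 h in every tissue. In the brain and the meninges, though, the 24 h libraries overlapped those at 0.5 h. The test between these times did not pass there (adjusted p = 0.509 and 0.248). Meninges controls held 33.0, 38.7 and 31.3 CPM, the 0.5 h libraries 20.7, 14.0 and 18.1 CPM, and the 24 h libraries 14.9, 8.18 and 12.5 CPM. The controls lay above all exposed libraries. The log2 fold change at 0.5 h was -0.95 ± 0.22 (adjusted p = 0.0907). Of 10 alternatives other than leaving out 1 library, 3 called that fall. They were DESeq2 (adjusted p = 0.00214), limma-voom (adjusted p = 0.0372) and the 2 groups alone (adjusted p = 0.0354). It also passed without meninges 24 h 2 (adjusted p = 0.0299). At 24 h the log2 fold change was -1.51 ± 0.22 (adjusted p = 0.00379), the largest fold change of a member in the meninges. Skeletal muscle markers summed to 13.1 to 3377 CPM over the meninges controls, with a median of 20.3 CPM. At 24 h they summed to 4.16 to 44.9 CPM, and their part in the Klf15 result was not tested. In the skull, where Klf15 is scarce, the controls held 6.08, 11.1 and 6.49 CPM, the 0.5 h libraries 9.23, 5.96 and 6.96 CPM and the 24 h libraries 4.29, 2.47 and 1.37 CPM. Only the 24 h libraries were separate from the controls, and Klf15 then fell by 1.535 ± 0.38 on the log2 scale (adjusted p = 0.0157), a call that ended without skull 24 h 2 (adjusted p = 0.0546). In the brain the controls held 23.2, 22.6 and 25.5 CPM and the 24 h libraries 13.4, 16.5 and 17.2 CPM. The groups did not overlap, and the log2 fold change was -0.60 ± 0.14 (adjusted p = 0.0270), a call that ended without any 1 of the brain controls or without brain 24 h 1 (adjusted p up to 0.0917). In the fit of all 27 libraries its adjusted p was 0.283.

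Klf2, on chromosome 8 (72319033 to 72321656, plus strand), kept its level at 0.5 h within the spread of the controls in the meninges and fell by 24 h. Meninges controls held 166, 157 and 171 CPM, the 0.5 h libraries 150.4, 185 and 158 CPM, and the 24 h libraries 112, 76.9 and 102 CPM. The 0.5 h libraries overlapped the controls, and the 24 h libraries lay below both. The log2 fold change at 24 h was -0.74 ± 0.13 (adjusted p = 0.00903). Skull controls held 108, 123.5 and 122 CPM, the 0.5 h libraries 100.3, 91.2 and 106 CPM and the 24 h libraries 62.3, 48.4 and 60.1 CPM. The 3 skull groups did not overlap, and the log2 fold change was -0.26 ± 0.11 at 0.5 h (adjusted p = 0.173) and -1.04 ± 0.11 at 24 h (adjusted p = 6.88e-05). Brain levels were low, at 20.6, 14.5 and 18.1 CPM in the controls, 14.0, 12.4 and 20.7 CPM at 0.5 h and 4.60, 5.14 and 9.96 CPM at 24 h. The 24 h brain libraries lay below all others, and Klf2 fell by 1.44 ± 0.29 on the log2 scale (adjusted p = 0.0330). The brain call ended without brain control 1, brain control 3, brain 24 h 1 or brain 24 h 2 (adjusted p up to 0.107).

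Klf4, on chromosome 4 (55527143 to 55532466, minus strand), fell at both times in the meninges and the skull. Meninges controls held 192, 197 and 174 CPM, the 0.5 h libraries 112, 125 and 116 CPM, and the 24 h libraries 96.6, 83.6 and 108 CPM. The controls lay above all exposed libraries, with log2 fold changes of -0.66 ± 0.11 at 0.5 h (adjusted p = 0.0177) and -0.94 ± 0.11 at 24 h (adjusted p = 0.000611). The 0.5 h call ended without meninges control 1 or 2 or any 1 of the 0.5 h libraries (adjusted p up to 0.121). Skull controls held 180.3, 194 and 275 CPM, the 0.5 h libraries 139, 135 and 126 CPM, and the 24 h libraries 155, 119 and 145 CPM. The third control was high and the exposed groups overlapped each other, with log2 fold changes of -0.70 ± 0.16 at 0.5 h (adjusted p = 0.0338) and -0.62 ± 0.16 at 24 h (adjusted p = 0.0195). These skull calls were less stable: the first ended without any 1 of the 0.5 h libraries or skull 24 h 3 (adjusted p up to 0.120), the second without skull 24 h 2 (adjusted p = 0.0584). In the brain Klf4 held 26.2, 11.5 and 14.3 CPM in the controls, 8.40, 5.69 and 13.1 CPM at 0.5 h, and 6.11, 6.22 and 6.30 CPM at 24 h. The deepest control, brain control 1, was the highest. The 24 h libraries lay below all controls, the log2 fold change was -1.50 ± 0.36 and the adjusted p was 0.0643. The adjusted p was 0.0393 without brain control 2, 0.0401 without brain 0.5 h 2 and 0.0261 without brain 0.5 h 3. Of 10 alternatives other than leaving out 1 library, 6 called this brain fall. Among them were DESeq2 (adjusted p = 8.07e-05) and the fit of all 27 libraries (adjusted p = 0.00572).

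The summed level of endothelial markers was not below the controls in the skull at 24 h, when Klf2 and Klf4 had fallen. It was 311 to 365 CPM in the skull controls and 355 to 367 CPM at 24 h. In the meninges it was 882 to 973 CPM in the controls and 768 to 886 CPM at 24 h, and in the brain 138 to 155 CPM and 117 to 129 CPM, ranges that did not overlap in the brain. All 7 endothelial markers were above 0 in each group. In the skull at 24 h 1 of them, Cldn5, was called lower and 0 higher, and without overlap 2 were lower and 2 higher. Cldn5 was also called lower in the brain at 24 h. The part of endothelial content in these results was not tested.

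Klf6, on chromosome 13 (5861482 to 5870394, plus strand), had its highest level in the skull controls, at 256, 305 and 313 CPM. At 0.5 h the skull libraries held 187, 148 and 204 CPM, and at 24 h 155, 140 (skull 24 h 2) and 198 CPM. All exposed skull libraries lay below the controls, and the log2 fold changes were -0.70 ± 0.15 at 0.5 h (adjusted p = 0.0260) and -0.82 ± 0.15 at 24 h (adjusted p = 0.00362). The 0.5 h call ended without skull control 2 or 3 or skull 0.5 h 1 or 2 (adjusted p up to 0.0986). In the meninges Klf6 held 161, 135 and 148 CPM in the controls, 115, 116 and 126 CPM at 0.5 h and 105, 105 and 118 CPM at 24 h. The controls were again the highest libraries, and the log2 fold change at 24 h was -0.41 ± 0.08 (adjusted p = 0.0142). That call ended without meninges control 1 or meninges 24 h 2 (adjusted p up to 0.0589). In the brain Klf6 held 74.8, 45.5 and 48.8 CPM in the controls and 60.2, 49.0 and 50.7 CPM at 24 h, ranges that overlap.

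Klf11, on chromosome 12 (24651274 to 24662789, plus strand), showed the smallest adjusted p of any member in the skull. Skull controls held 81.5, 63.9 and 75.0 CPM, the 0.5 h libraries 37.0, 39.3 and 40.3 CPM, and the 24 h libraries 30.3, 25.5 and 30.3 CPM. The groups did not overlap and the spread within each exposed group was small. The log2 fold changes were -0.92 ± 0.11 at 0.5 h (adjusted p = 0.00166) and -1.35 ± 0.11 at 24 h (adjusted p = 1.39e-05), and both calls held whichever library was left out. In the meninges the controls held 51.4, 29.7 and 33.3 CPM and the 24 h libraries 28.8, 27.1 and 25.6 CPM. The first control was high, and the log2 fold change was -0.46 ± 0.18 (adjusted p = 0.147). The brain held 7.03 to 9.81 CPM over all 9 libraries, with a log2 fold change of -0.02 ± 0.18 at 24 h (adjusted p = 0.970).

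Klf10, on chromosome 15 (38291463 to 38300706, minus strand), held 92.6, 65.2 and 93.0 CPM in the skull controls, 54.7, 60.1 and 63.3 CPM at 0.5 h and 55.9, 45.3 and 48.4 CPM at 24 h. The second control was the lowest of its group, yet above all exposed libraries. The log2 fold change was -0.50 ± 0.13 at 0.5 h (adjusted p = 0.0512) and -0.74 ± 0.13 at 24 h (adjusted p = 0.00282). Meninges controls, at 59.9, 46.4 and 38.3 CPM, overlapped the 24 h libraries, at 37.0, 44.0 and 33.5 CPM. Brain levels were 21.1, 21.9 and 25.8 CPM in the controls and 41.5, 21.5 and 32.9 CPM at 24 h, a log2 fold change of 0.48 ± 0.18 that did not pass the test (adjusted p = 0.190).

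Klf7, on chromosome 1 (64029447 to 64122282, minus strand), had similar levels in the 3 untreated tissues. It shares 3196 exon bases with the non-coding gene Gm26649 on the opposite strand, whose reads may have been counted with it, since no source used here gives the strand setting of the counting. In the meninges it held 113, 104 and 113 CPM in the controls, 90.4, 86.3 and 111 CPM at 0.5 h, and 66.8, 78.3 and 74.9 CPM at 24 h. The 24 h libraries were the lowest, with a log2 fold change of -0.56 ± 0.10 (adjusted p = 0.00581). Skull controls held 88.7, 97.2 and 93.9 CPM and the 24 h libraries 67.0, 73.2 and 69.8 CPM. These groups did not overlap, and the log2 fold change was -0.41 ± 0.09 (adjusted p = 0.00921). Brain controls, at 90.4, 90.8 and 99.3 CPM, overlapped the 24 h libraries, at 98.8, 87.0 and 77.4 CPM.

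Klf5, on chromosome 14 (99298691 to 99315036, plus strand), was the member that rose. Meninges controls held 14.8, 15.3 and 17.5 CPM, the 0.5 h libraries 23.4, 25.4 and 24.0 CPM, and the 24 h libraries 20.1, 18.2 and 21.6 CPM. Every exposed library lay above every control. The log2 fold change was 0.63 ± 0.11 at 0.5 h (adjusted p = 0.0311) and 0.36 ± 0.11 at 24 h (adjusted p = 0.0828). The 0.5 h call ended without any 1 of the meninges controls or 0.5 h libraries (adjusted p up to 0.177), and with the correction for GC content and length the adjusted p was 0.0606. In the skull its levels were 11.5, 15.2 and 11.7 CPM in the controls and 9.002, 10.1 and 9.25 CPM at 24 h, a log2 fold change of -0.43 ± 0.17 (adjusted p = 0.0885). Brain libraries held 11.3 to 16.0 CPM in all groups.

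Klf3, on chromosome 5 (64803388 to 64832901, plus strand, sharing 404 exon bases with Gm20033 on the opposite strand), passed no test against untreated tissue. Meninges controls held 99.2, 101 and 80.1 CPM, the 0.5 h libraries 112, 129 and 118 CPM and the 24 h libraries 86.0, 107 and 98.8 CPM. The 0.5 h libraries lay above the controls, with a log2 fold change of 0.38 ± 0.11 (adjusted p = 0.151). Skull levels were 117, 97.8 and 100.3 CPM in the controls, 116, 135 and 131 CPM at 0.5 h, and 95.0, 98.5 and 86.4 CPM at 24 h. The skull groups at 0.5 h and 24 h did not overlap each other, though each overlapped the controls. Brain libraries held 28.7 to 40.1 CPM.

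The change between 0.5 h and 24 h was tested as well. In the skull 5 members were lower at 24 h than at 0.5 h, where 7.74% of genes were called lower: Klf2 (-0.79 ± 0.11, adjusted p = 0.000721), Klf3 (-0.44 ± 0.09, adjusted p = 0.00764), Klf7 (-0.38 ± 0.09, adjusted p = 0.0155), Klf11 (-0.43 ± 0.11, adjusted p = 0.0209) and Klf15 (-1.43 ± 0.38, adjusted p = 0.0260). The count was 3 without any 1 of skull 0.5 h 1, skull 0.5 h 3, skull 24 h 2 or skull 24 h 3. The calls of Klf2 and Klf3 held without each library. Klf7 ended without skull 0.5 h 1, skull 24 h 1 or skull 24 h 3 (adjusted p up to 0.0719), Klf11 without skull 0.5 h 2, skull 0.5 h 3 or skull 24 h 2 (up to 0.0709), and Klf15 without skull 0.5 h 1 or 3 or skull 24 h 2 or 3 (up to 0.0878). Klf4 and Klf6, both already lower at 0.5 h, differed by 0.08 ± 0.16 and -0.12 ± 0.15 between the times (adjusted p = 0.779 and 0.636). In the meninges 2 members were lower at 24 h than at 0.5 h, where 1.27% of genes were called lower: Klf2 (-0.75 ± 0.13, adjusted p = 0.0194) and Klf13 (-0.32 ± 0.07, adjusted p = 0.0413). The Klf2 call ended without any 1 of the meninges 0.5 h libraries or meninges 24 h 3 (adjusted p up to 0.0974), and the Klf13 call without any 1 library except meninges control 3 (up to 0.202). The count became 0 without any 1 of the meninges 0.5 h libraries or meninges 24 h 3, and 1 without meninges control 1 or 2 or meninges 24 h 1 or 2. In the brain 0 members passed, where 0.22% of genes did and 2208 genes had an unadjusted p under 0.05, while DESeq2 called 1 member, Klf2. Its log2 difference in edgeR was -1.26 ± 0.30 (adjusted p = 0.142), which passed without brain 24 h 3 (adjusted p = 0.00602). Klf10 differed by 0.61 ± 0.18 (adjusted p = 0.223) and passed without brain 24 h 2 (adjusted p = 0.00798).

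Differences between tissues were tested as differences of log2 fold changes against each tissue's own controls. At 24 h the skull response was lower than the brain response in 4 members, where 3.39% of 21500 genes were called lower: Klf11 (-1.34 ± 0.23, adjusted p = 0.000879), Klf10 (-1.23 ± 0.26, adjusted p = 0.00630), Klf6 (-0.74 ± 0.22, adjusted p = 0.0394) and Klf13 (-0.66 ± 0.10, adjusted p = 0.000333). Klf10, Klf11 and Klf13 held without each library. The Klf6 call ended without any 1 of brain control 2 or 3, skull control 2 or 3, brain 0.5 h 2, meninges 0.5 h 2, brain 24 h 1 or 3, or skull 24 h 1 or 2 (adjusted p up to 0.112). Klf2, which fell in all 3 tissues at 24 h, differed between skull and brain by 0.39 ± 0.30 (adjusted p = 0.513). Against the brain, the meninges response at 24 h was lower in 1 member, Klf13 (-0.81 ± 0.10, adjusted p = 0.000250), where 0.716% of genes were called lower. The other members with the smallest p there were Klf7 (-0.50 ± 0.14, adjusted p = 0.0846), Klf10 (-0.82 ± 0.26, adjusted p = 0.132) and Klf5 (0.50 ± 0.19, adjusted p = 0.215). Klf10 passed without brain 24 h 2 (adjusted p = 0.0307), and the count of members was 2 without brain 24 h 2 or without brain 24 h 3.

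**Figure D4:**
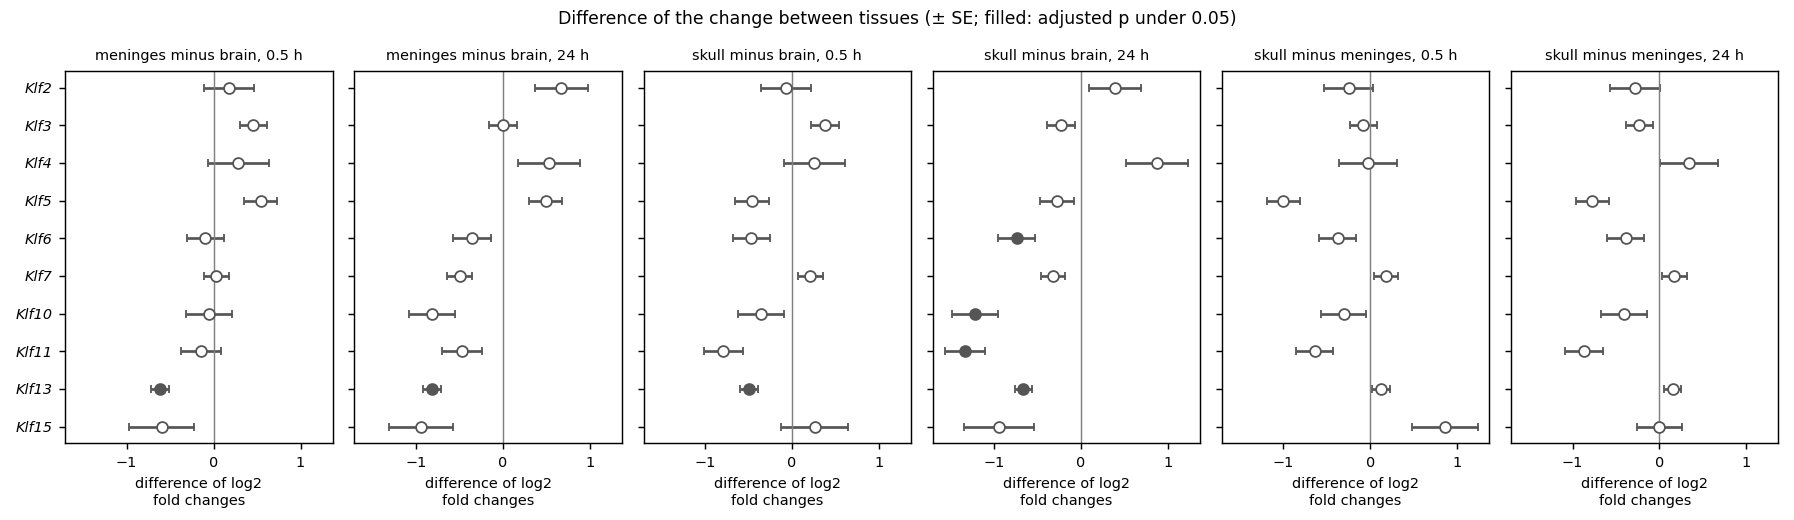
Difference between 2 tissues in the log2 fold change against control (± SE, fit of all 27 libraries), for each gene at 0.5 h and 24 h. Filled points have an adjusted p under 0.05: Klf13 in all 4 comparisons with the brain, and Klf6, Klf10 and Klf11 for skull minus brain at 24 h.

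At 0.5 h Klf13 alone among the members differed between tissues. Its response in the meninges was lower than in the brain by -0.62 ± 0.10 (adjusted p = 0.0360), where 0.00465% of genes were called lower, and its response in the skull was lower by -0.49 ± 0.10 (adjusted p = 0.0363), where 0.102% were called lower. Both calls depended on many libraries. The meninges call ended without 18 of 27, that is without any library except brain control 1, brain 0.5 h 3, brain 24 h 1, meninges 24 h 1, skull 0.5 h 1 to 3 and skull 24 h 1 and 3 (adjusted p up to 0.143). The skull call ended without 19 of 27, that is without any library except meninges control 1 to 3, skull 0.5 h 3, brain 24 h 1, meninges 24 h 2 and skull 24 h 1 and 3 (up to 0.128).

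Skull and meninges responses differed in 0 members at 0.5 h, where 0.0093% of genes were called, and in 0 members at 24 h, where 0.633% were called. At an unadjusted p under 0.05, 1254 genes passed at 0.5 h and 2410 at 24 h, and DESeq2 called 1 and 2 members. Among the members with the smallest p were Klf5, lower in the skull by -1.002 ± 0.19 at 0.5 h (adjusted p = 0.129) and -0.77 ± 0.19 at 24 h (adjusted p = 0.0685), Klf15, higher by 0.86 ± 0.38 at 0.5 h (adjusted p = 0.809), and Klf11, lower by -0.87 ± 0.22 at 24 h (adjusted p = 0.0689). Klf11 passed without meninges control 1 (adjusted p = 0.00311). These p-values do not show that the 2 tissues respond alike.

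In the skull, markers of blood and immune cells were lower at 24 h beside these genes. Neutrophil markers (6 of 6 above 0) summed to 3565 to 7269 CPM in the skull controls and 2637 to 4111 CPM at 24 h, erythroid markers (5 of 5) to 5281 to 5918 and 3022 to 4612 CPM, and B cell markers (4 of 4) to 164 to 177 and 84.1 to 154 CPM. The erythroid and B cell ranges did not overlap. Macrophage markers in the skull (4 of 4) summed to 416 to 493 CPM in the controls and 346 to 412 CPM at 24 h, without overlap. In the meninges, where 6 members fell at 24 h, neutrophil markers (6 of 6) summed to 135 to 444 CPM in the controls and 105 to 126 CPM at 24 h, again without overlap, though 0 of them were called. The other sums there overlapped the controls: erythroid 1345 to 1694 against 1659 to 2300 CPM, B cell 11.8 to 24.3 against 17.1 to 27.8 CPM, macrophage 614 to 770 against 577 to 786 CPM. The macrophage marker Lyve1 was called higher. In the skull at 0.5 h Klf4, Klf6, Klf11 and Klf13 had fallen. The sums then were 4372 to 6824 CPM for neutrophils, 5239 to 8333 CPM for erythroid cells and 180.3 to 237 CPM for B cells. The B cell range lay above the controls and the others overlapped them. The part of these cells in the 24 h results was not tested. Keratinocyte markers, which would mark skin, summed to at most 14.1 CPM in any library, and Krt5 was at 0 in the untreated meninges and skull. Pineal markers in the meninges were 1004 to 1214 CPM in the controls and 678 to 820.2 CPM at 24 h, and their part in the meninges results was not tested.

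Other members of the family moved in both directions. Of 16 further KLF and SP genes, 15 were in the table and 10 to 14 passed the filter within a tissue. Klf9, a close relative of Klf13 that responds to glucocorticoids and thyroid hormone, fell at 24 h in the brain (-0.38 ± 0.07, adjusted p = 0.00815), the meninges (-1.42 ± 0.15, adjusted p = 0.000546) and the skull (-2.09 ± 0.21, adjusted p = 0.000277), and at 0.5 h in the skull (-1.08 ± 0.20, adjusted p = 0.0207). Skull levels of Klf9 were 464 ± 78.9 CPM (SD, n = 3) in the controls, 219.9 ± 36.1 at 0.5 h and 108 ± 27.5 CPM at 24 h. Its fall at 24 h was larger in the skull than in the brain by -1.73 ± 0.23 (adjusted p = 5.38e-05). Klf16 rose at 24 h in the meninges (0.81 ± 0.16, adjusted p = 0.0117) and the skull (0.63 ± 0.13, adjusted p = 0.00693). Sp7, the osteoblast factor osterix, rose in the same places, by 1.03 ± 0.20 (adjusted p = 0.0191) and 1.01 ± 0.18 (adjusted p = 0.00380). The osteoblast markers Bglap and Phex were called lower in the meninges at 24 h. The summed osteoblast markers there were 739 to 1034 CPM in the controls and 449 to 772 CPM at 24 h, ranges that overlap. The other family genes tested, Sp1 and Sp3 among them, passed no test against control in any tissue. At 24 h in the skull the family list held 2 higher and 1 lower of 10 tested, near the shares of all genes there (10.6% higher and 10.4% lower), with a median log2 fold change of -0.02.

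Glucocorticoid-linked genes were lower beside Klf13 and Klf15. Of 6 genes, the receptor Nr3c1 and 5 of its known targets, 4 fell and 0 rose at 24 h in the meninges and likewise in the skull, 3 fell in the brain, and the medians were -1.13, -1.16 and -0.34. Of all genes, 4.45%, 10.4% and 1.42% were called lower in these comparisons. Per1, which is both a clock gene and a glucocorticoid target, fell in all 6 comparisons with control, by 0.66 ± 0.08 (adjusted p = 0.00439) in the brain at 0.5 h, where it was the single gene called, and by 1.85 ± 0.20 (adjusted p = 0.000324) in the skull at 24 h. Sgk1, a kinase that acts on ion channels, fell in 5 comparisons, by 1.46 ± 0.15 at 24 h in the brain (adjusted p = 0.00156). Tsc22d3, which encodes GILZ, fell at 24 h in all 3 tissues, by 1.02 ± 0.12 in the skull (adjusted p = 0.000185). Fkbp5 fell at 24 h in the meninges (-0.72 ± 0.18, adjusted p = 0.0418) and Zbtb16 in the skull (-1.29 ± 0.28, adjusted p = 0.0116). Nr3c1 itself passed no test against control. The amino acid catabolism genes Prodh, Bcat2 and Gpt, reported targets of KLF15, were called in 0 of 3 in every comparison with control.

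Upstream of Klf2 and Klf4, the ERK5 pathway list held opposite movements. Mapk7, which encodes ERK5, rose at 24 h in the meninges (0.59 ± 0.12, adjusted p = 0.0150) and the skull (0.46 ± 0.10, adjusted p = 0.00822), while Mef2a, a factor that ERK5 can activate, fell in both (-0.37 ± 0.09, adjusted p = 0.0255, and -0.41 ± 0.09, adjusted p = 0.00705). Map3k3, a kinase upstream of ERK5, fell in the skull at 24 h (-0.28 ± 0.09, adjusted p = 0.0416). Ccm2, part of the complex that restrains this pathway in endothelium, fell in the brain at 24 h (-0.47 ± 0.11, adjusted p = 0.0289). Median changes of the list stayed between -0.07 and 0.04 in the 6 comparisons.

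Reported targets of KLF2 and KLF4 were called lower or not at all. Endothelin-1, Edn1, which KLF2 is known to repress, fell at 24 h in the meninges from a mean of 21.3 to 5.74 CPM (-1.86 ± 0.15, adjusted p = 0.000119) and in the brain from 4.73 to 2.02 CPM (-1.23 ± 0.31, adjusted p = 0.0412). Adamts1, which encodes a secreted protease, fell in the meninges and skull at both times, most in the skull at 24 h (-1.66 ± 0.20, adjusted p = 0.000774). There Adamts4 (-0.97 ± 0.19, adjusted p = 0.00769) and Adamts5 (-1.04 ± 0.14, adjusted p = 0.000690) fell as well. Nos3, Thbd, S1pr1 and Vcam1 passed no test against control, Nos3 and Thbd being endothelial genes that KLF2 is known to induce. Of the 9 targets, 3 fell in the skull at 24 h and 2 in the meninges, with medians of -0.37 and -0.34, where 10.4% and 4.45% of all genes were called lower.

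A further list holds the TGF-beta pathway, an input to Klf10 and Klf11. Smad3, a signal transducer of the pathway, fell at 24 h in the meninges and the skull, by 0.59 ± 0.11 (adjusted p = 0.00938) and 0.66 ± 0.12 (adjusted p = 0.00226). In the brain at 24 h Smad4 (-0.36 ± 0.09, adjusted p = 0.0451) and the inhibitory Smad7 (-0.39 ± 0.10, adjusted p = 0.0476) fell. The ligands and receptors, Tgfb1 to Tgfb3, Tgfbr1 and Tgfbr2, passed no test against control. Of 10 partners of KLF proteins, 0 were called in the other 5 comparisons with control and 5 in the skull at 24 h, where 20.9% of all genes were called. There the co-repressor gene Ctbp2 (0.45 ± 0.13, adjusted p = 0.0266) and the deacetylase gene Hdac2 (0.35 ± 0.08, adjusted p = 0.00859) rose, and Ctbp1 (-0.30 ± 0.07, adjusted p = 0.0111), Hdac5 (-0.32 ± 0.09, adjusted p = 0.0249) and Fbxw7 (-0.62 ± 0.13, adjusted p = 0.00582), which encodes a subunit of a ubiquitin ligase, fell.

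Across the 27 libraries, with each tissue's mean subtracted, the genes most like each member were listed by Pearson's r of log2 CPM among 21499 other genes, as a description. The libraries share their groups and depth. Klf13 had the closest companions, Mideas (r = 0.957), Per1 (0.947) and Tiparp (0.937). Klf2 was followed by Depp1 (0.906) and Txnip (0.897), Klf4 by Atf3 (0.907) and Tcf7l1 (0.873), Klf6 by Ccnl1 (0.892) and Adamts1 (0.889), and Klf11 by Sdc4 (0.892) and Arid5b (0.887). Klf7 was closest to Gatad2b (0.888), Klf15 to Bend5 (0.858), Klf3 to Ecm2 (0.810), Klf10 to Frmd6 (0.786) and Klf5 to A730085K08Rik (0.702). Among the members themselves the highest values were 0.795 for Klf6 with Klf11, 0.775 for Klf6 with Klf13, 0.760 for Klf11 with Klf13 and 0.743 for Klf13 with Klf15. Klf2 and Klf4 had r = 0.715. Klf3 had r between -0.27 and 0.31 with every other member, and Klf5 between -0.10 and 0.36.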

How the data were processed

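The values are counts of reads per gene symbol, whole numbers in 27 libraries, as the authors deposited them. HISAT2 2.1.0 and the mm10 build are named in the submitters' processing notes. No source used here gives the counting tool, annotation or strand. Counts were scaled by TMM and filtered with filterByExpr (minimum count 10, minimum total 15). The test was edgeR's quasi-likelihood F test, robust (edgeR 4.0.16, R 4.3.3), with Benjamini-Hochberg adjustment over all tested genes at 0.05. Each tissue was fitted from its 9 libraries. Untreated tissues and differences of responses were fitted from all 27. Each SE was worked back from F (size of the log2 fold change divided by the root of F) and is unreliable for changes near 0. CPM are counts on totals scaled over all 27 libraries.

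The members and gene lists were chosen with earlier results of these data known. The rule for named genes was every member passing a test, or the 4 with the smallest p where fewer passed, plus every listed gene that passed against control. Of the listed genes, 2 are not reported here. Replicate numbers did not clearly pair libraries. No 2 libraries were alike within sampling noise. Alternatives were DESeq2 1.42.0, limma 3.58.1 voom, other scaling, filtering, designs and leaving out each library, and, chosen after seeing the data, a correction for GC content and length, which 95.6% to 95.8% of tested genes allowed. Annotation was GENCODE M21 and promoters were from RefSeq on GRCm38.p6. On simulated counts for 24 h against control, the test recovered 65.8% of genes changed 2-fold in the brain, 51.3% in the meninges and 65.2% in the skull. Of the genes called in these simulations, 7.41%, 7.48% and 8.51% had not been changed. Each simulation changed 200 genes and gave every other gene the same mean level in all groups. In the data themselves 20.9% of genes were called in the skull at 24 h, so the rates may differ there.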

Additional observations from a re-analysis of the deposited data

Results flagged for a closer look

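In 7 cases the change of a member after UVB differed between tissues by the test of the difference itself. The difference in log2 fold change of Klf13 between meninges and brain was -0.62 at 0.5 h (adjusted p = 0.0360, edgeR) and -0.81 at 24 h (adjusted p = 0.000250). Between skull and brain it was -0.49 at 0.5 h (adjusted p = 0.0363) and -0.66 at 24 h (adjusted p = 0.000333). Klf13 was lower than every control in all 3 exposed libraries of each tissue and time. In the brain, though, its change at 0.5 h did not pass the test (-0.12, adjusted p = 0.938). The brain call at 24 h ended without any 1 library except brain 0.5 h 3. At 24 h the skull response also lay below the brain response for Klf11 (-1.34, adjusted p = 0.000879), Klf10 (-1.23, adjusted p = 0.00630) and Klf6 (-0.74, adjusted p = 0.0394). For Klf10 the fold changes had opposite signs, -0.74 in the skull and 0.48 in the brain, the latter not past the test. The 0.5 h differences of Klf13 and the difference of Klf6 did not hold without each library.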

How the results depend on the processing

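No member changed sign in any alternative where it was called. Of 31 calls within tissues, 16 held in every alternative and without each library, among them Klf13 in the meninges and skull and Klf11 in the skull against control. Counts of members called in the meninges at 24 h, the skull at 24 h, skull minus brain at 24 h and the untreated tissues stayed within 1.5 times their value. Without a filter on low counts the brain counts became 1 at 0.5 h (from 0), 5 at 24 h (from 3) and 2 for 24 h against 0.5 h (from 0), and the 0.5 h differences meninges minus brain and skull minus brain became 0 (from 1 each). DESeq2 called 1 for brain 24 h against 0.5 h, 5 in the meninges at 0.5 h (from 3), 2 for meninges minus brain at 24 h (from 1), and 1 and 2 for skull minus meninges at 0.5 h and 24 h (from 0). Fitting 2 groups alone gave 0 for meninges 24 h against 0.5 h (from 2), the GC and length correction 1 there, and all 27 libraries 1 for brain 24 h against 0.5 h. RLE scaling and the fit without the robust option gave 0 for meninges minus brain at 0.5 h.

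Replicate numbers did not clearly pair libraries. Deviations of same-numbered libraries of a tissue correlated over 0.1 in 1 of 27 pairs, and across tissues in 0 of 27. A library correlated best with its own number in 21 of 54 cases within tissues and 23 of 54 across tissues of a condition. For meninges with skull at 24 h, r was 0.039, 0.094 and 0.094 for the same number and negative otherwise. For the controls of these 2 tissues it was -0.048, -0.050 and 0.016 for the same number. With the number as a replicate block within a tissue, the count was 1 for brain 24 h against 0.5 h (from 0). It was 1 in the meninges at 0.5 h (from 3) and 0 for meninges 24 h against 0.5 h (from 2). In the fit of all 27 libraries the block was condition by number. The counts there were 0 for the 0.5 h differences of meninges and of skull minus brain (from 1 each) and 1 for skull minus meninges at 24 h (from 0).

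Leaving out 1 library gave 0 to 4 members for brain 24 h, 0 to 1 for brain 24 h against 0.5 h, 1 to 4 for meninges 0.5 h, 0 to 2 for meninges 24 h against 0.5 h, 2 to 4 for skull 0.5 h, 3 to 6 for skull 24 h against 0.5 h, 0 to 1 for both 0.5 h differences from the brain, 1 to 2 for meninges minus brain at 24 h and 0 to 1 for skull minus meninges at 24 h. Over all genes, DESeq2 called 606 in the meninges at 0.5 h (162 in edgeR), 877 in the brain at 24 h (477) and 1536 in the skull at 0.5 h (854). On simulated counts, 44.6% of genes with a 2-fold difference in response between skull and brain were recovered. Smaller differences between tissues may therefore be missed. Apart from the changed genes, the simulated tissues shared their mean levels, and neither depth nor the number of libraries was varied.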
